A study of Homo sapiens with 6 samples.

Results

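Expression of 31 genes of cholesterol and fatty acid synthesis was examined in HCT116, a long-established line of human colorectal carcinoma cells, to ask how it stood when the small nucleolar RNA SNORA28 was overexpressed. The genes were taken from a fixed list of mevalonate pathway enzymes (7), squalene and sterol enzymes (11), SREBP factors with their retention proteins and a sterol carrier (5), and lipogenic enzymes (8). All 31 were found among the 60612 genes listed for each library, and all 31 passed the minimum mean of 1 FPKM that 12076 genes met. FPKM is the number of fragments scaled to the length of the transcript and to all mapped fragments of a library.

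The study compared HCT116 cells infected with the negative control lentivirus (LV-NC, 3 libraries) with HCT116 cells infected with a lentivirus overexpressing SNORA28 (LV-SNORA28, 3 libraries). The study names the GV235 vector for its SNORA28 lentivirus and does not state separately which vector the control virus used. Cells of both groups were collected after the same time of infection. The sources used here do not say whether the libraries of a group came from separate cultures, so p-values measure the spread between these libraries, which may be technical. The comparison rests on 1 cell line, and in bulk RNA fewer cells of a kind and less RNA per cell cannot be told apart.

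Cells make cholesterol from acetyl-CoA through mevalonate, farnesyl diphosphate, squalene and lanosterol, and they make fatty acids from the same acetyl-CoA through malonyl-CoA, with later elongation and desaturation of the chain. Both routes are transcribed under the sterol regulatory element-binding proteins (SREBPs), which are escorted by SCAP from the endoplasmic reticulum to the Golgi for cleavage and are held back by INSIG proteins when sterols are plentiful. SREBP-2, the product of SREBF2, mainly drives the sterol genes, and SREBP-1, the product of SREBF1, mainly drives lipogenesis. Colorectal tumour cells are known to keep lipogenesis active.

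Promoters of the genes are shown first, because the SREBPs and NF-Y act together at such promoters. RefSeq promoter sequences on GRCh38.p14, from 250 bases before to 50 bases after the 1 RefSeq transcript start taken for each gene, were matched by symbol for 27 of the 31 genes. That start lay within 1000 bases of the outermost 5′ end in GENCODE 44, on which the gene spans given further on rest, in 20 of the 27. In ACLY, ACSS2, DHCR7, FADS1, FADS2, IDI1 and SCAP it lay farther off, and for FADS2 it was 23223 bases inside the span. The ELOVL6 window, 584 bases inside, belongs to such an inner start too. ACAT2, FASN, FDFT1 and SQLE had no entry. The 4 promoters printed 5′ to 3′ on the gene's strand are those of FDPS, a gene that was higher in LV-SNORA28, MSMO1, a sterol enzyme with a lower estimate, ELOVL6, the gene with the largest fold change among the 31, and SREBF2, the gene of SREBP-2. Capitals mark the sterol regulatory element (SRE, TCACNCCAC) and the CCAAT box (CCAAT, bound by NF-Y), each read on both strands.
FDPS, chr1:155308616-155308915, plus strand: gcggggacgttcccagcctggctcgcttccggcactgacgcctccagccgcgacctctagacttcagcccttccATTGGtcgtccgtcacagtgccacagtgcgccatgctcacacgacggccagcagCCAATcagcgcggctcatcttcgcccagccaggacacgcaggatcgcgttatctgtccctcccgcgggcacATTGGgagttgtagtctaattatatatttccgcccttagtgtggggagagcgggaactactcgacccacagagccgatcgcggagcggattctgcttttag
MSMO1, chr4:165327419-165327718, plus strand: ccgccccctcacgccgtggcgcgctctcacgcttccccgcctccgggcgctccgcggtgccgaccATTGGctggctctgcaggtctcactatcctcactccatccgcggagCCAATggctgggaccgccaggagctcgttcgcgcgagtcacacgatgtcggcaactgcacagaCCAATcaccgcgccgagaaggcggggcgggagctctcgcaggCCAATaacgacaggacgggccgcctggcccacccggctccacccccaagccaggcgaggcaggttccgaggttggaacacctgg
ELOVL6, chr4:110198566-110198865, minus strand: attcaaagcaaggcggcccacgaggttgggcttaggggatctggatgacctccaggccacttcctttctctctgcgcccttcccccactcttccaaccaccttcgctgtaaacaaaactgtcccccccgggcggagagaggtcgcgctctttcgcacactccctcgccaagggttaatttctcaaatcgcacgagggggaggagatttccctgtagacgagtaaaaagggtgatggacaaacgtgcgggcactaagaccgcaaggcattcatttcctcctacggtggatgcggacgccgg
SREBF2, chr22:41832855-41833154, plus strand: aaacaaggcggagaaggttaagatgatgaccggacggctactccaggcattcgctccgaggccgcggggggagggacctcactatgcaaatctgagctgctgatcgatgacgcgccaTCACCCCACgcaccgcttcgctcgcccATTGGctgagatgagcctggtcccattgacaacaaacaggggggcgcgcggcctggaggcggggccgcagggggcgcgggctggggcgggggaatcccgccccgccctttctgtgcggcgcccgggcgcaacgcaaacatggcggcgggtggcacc
The FDPS window held 3 CCAAT boxes, which began at -176, -122 and -51 from the RefSeq start. The MSMO1 window held 4, which began at -185, -139, -76 and -34. In the SREBF2 window the SRE began at -133 and was followed by a CCAAT box at -106. The ELOVL6 window held no exact match of either motif and 1 GC box, at -122.

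Over all matched genes, a CCAAT box was found in 18 of 27 promoters (66.7%), against 37% of the 8814 promoters of genes tested and 35.7% of all 27305 promoters. The SRE letters were found in 1 of 27 (3.7%), that of SREBF2, against 1.1% of genes tested and 1.15% of all promoters. Only exact matches of these letters were counted, so a promoter without a match may still hold a site that departs from them. The E-box CACGTG was found in 4 of 27 (14.8%), against 10.5% and 7.43%. The GC box GGGCGG, read by SP1, was found in 25 of 27 (92.6%), against 73.1% and 44.6%. Matches of different motifs did not overlap each other in any of the 27 promoters, whereas matches of the same motif overlapped in NSDHL (CCAAT box) and in INSIG1, ACACA and SREBF2 (GC box). A match is a description of the sequence, and no binding was measured.

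**Figure D1:**
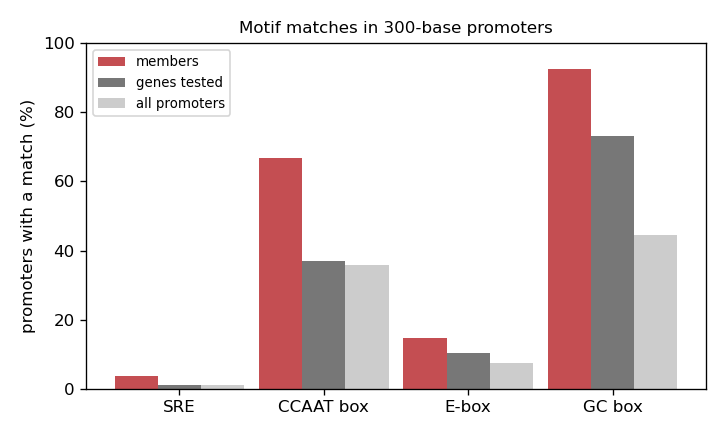
Share of promoters with at least 1 match of each motif, in percent, for the 27 matched cholesterol and fatty acid synthesis genes (red), the 8814 promoters of genes tested (dark grey) and all 27305 promoters (light grey). The CCAAT box was in 66.7% of the synthesis genes and in 37% of genes tested, while the SRE letters were in under 4% of every set.

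The labels were checked by SNORA28 itself, which had listed levels of 0.92, 0 and 0.64 FPKM in LV-NC against 15.01, 13.66 and 15.2 FPKM in LV-SNORA28 (limma log2 fold change 3.41, SE 0.23, adjusted p = 0.00228). The libraries were poly(A)-selected, and whether these reads came from mature SNORA28 or from a longer transcript was not tested. EIF5, the host gene of SNORA28, had 16.88, 8.56 and 9.48 FPKM in LV-NC and 13.8, 17.86 and 14.59 FPKM in LV-SNORA28. Its groups overlapped (limma adjusted p = 0.3). Epithelial markers were present in every library (EPCAM from 96.86 to 115.21 FPKM, KRT19 from 357.67 to 411.55 FPKM). Of the intestinal markers, LGALS4 and VIL1 stayed at or below 0.10 FPKM, while CDX2 ran from 3.47 to 4.33 FPKM. The summed level of 9 epithelial markers ran from 790.2 to 878.8 FPKM in LV-NC and from 810.4 to 859.8 FPKM in LV-SNORA28. That of 5 leukocyte markers ran from 1.1 to 2.2 FPKM and from 2.5 to 4.2 FPKM, almost wholly CD68, with PTPRC at or below 0.08 FPKM. The fibroblast genes COL1A2, DCN and LUM were listed at 0 in all libraries while COL1A1 ran from 3.16 to 4.46 FPKM, and no endothelial marker exceeded 0.09 FPKM. Mitochondrially encoded genes took 42.9%, 47.7% and 42.7% of all FPKM in LV-NC libraries and 38.3%, 37.8% and 35.9% in LV-SNORA28 libraries. Nuclear genes therefore held a larger share of all FPKM in LV-SNORA28. The sum of all FPKM differed too, at 334707, 374676 and 339342 in LV-NC and 318725, 320362 and 306048 in LV-SNORA28. These shares alone thus do not give the size of the shift in nuclear FPKM. The part of the mitochondrial share in the results was tested only by rescaling to the nuclear sum, given beside the counts.

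Of the 31 genes, ELOVL6, SQLE, ACAT2 and FDPS rose and FADS2 fell in LV-SNORA28, while 26 did not pass the test (limma on log2(FPKM + 1), adjusted p below 0.05 over 12076 genes). The 4 that rose are 12.9% of the list, against 6.81% of all genes tested called higher. The 1 that fell is 3.23% of the list, against 2.10% of all genes tested called lower. The median log2 fold change was 0.08 over the list and 0.09 over all genes tested, with 19 estimates above 0 and 12 below. The study screened at a p below 0.05 and more than 1.5-fold. With unadjusted limma p-values and folds on log2(FPKM + 1), ELOVL6 alone passed those limits (3.23% of the list, against 3.79% of genes tested). That scale shrinks the folds of low genes, and with a pseudocount of 0.1 FADS2 passed as well. The study's own fit was not repeated here, so its screen may have called other genes. Groups did not overlap, with LV-SNORA28 higher, for 10 genes (32.3%, against 27.0% of genes tested), and with LV-SNORA28 lower for 3 (9.68%, against 8.16%).

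Over all genes tested, 822 were called higher and 254 lower. After quantile normalization, which sets the median of all genes near 0, the split was 451 higher and 375 lower, and the list then had 3 higher (ACAT2, ELOVL6 and SQLE) and 2 lower (FADS2 and MSMO1). After rescaling to the nuclear FPKM sum the same 4 genes were called higher and the same 1 lower. ELOVL6 was called in all 13 alternative fits, SQLE in 10, ACAT2 in 8 and FDPS in 5 of 13, and FADS2 in 4 of the 12 that included it.

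**Figure D2:**
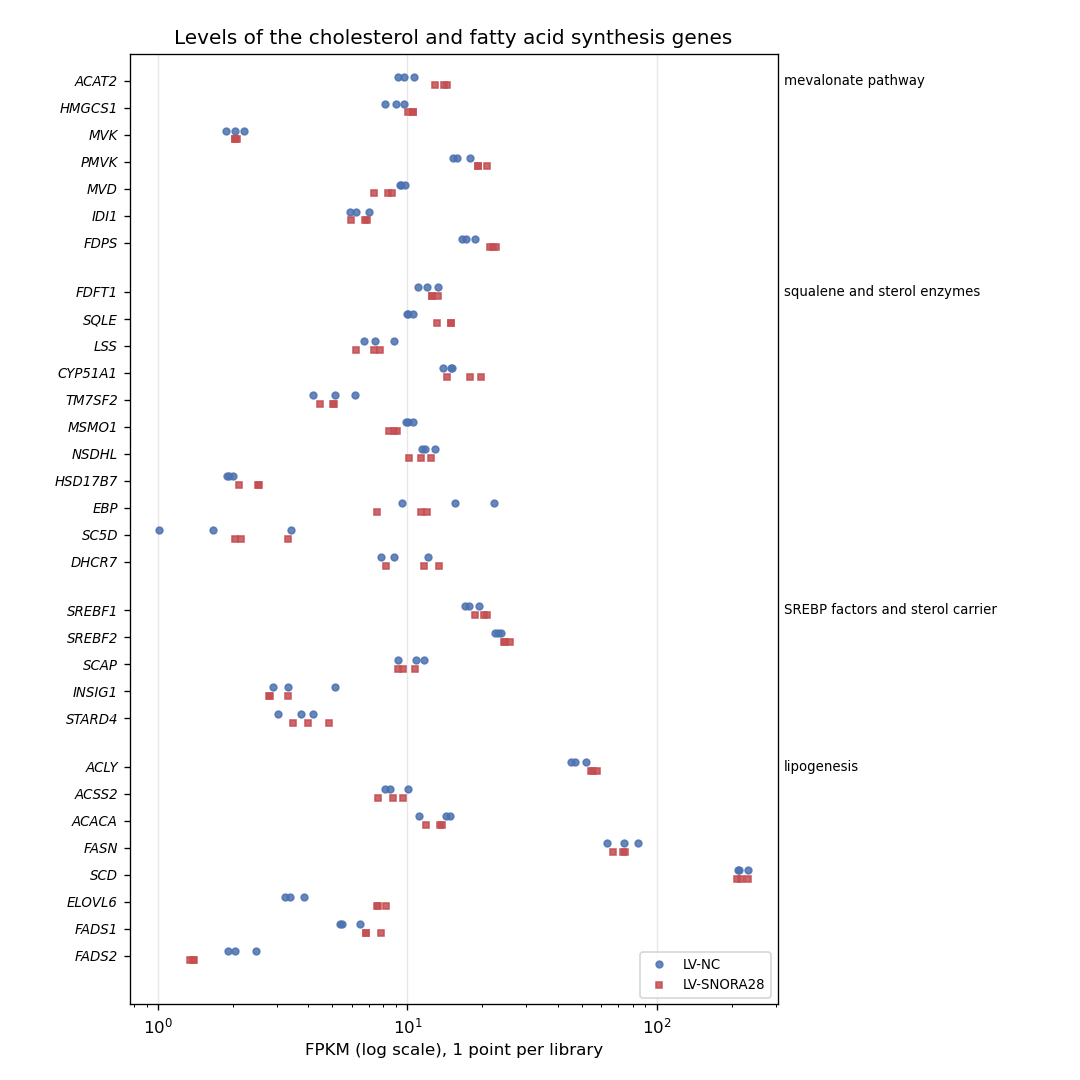
FPKM on a log scale of the 31 genes, grouped by role, with 1 point per library (blue circles LV-NC, red squares LV-SNORA28). Levels span from near 1 FPKM for SC5D to above 200 FPKM for SCD, and the groups stand clear of each other by the widest margin in ELOVL6.

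The genes were expressed over a wide range. SCD had the highest mean level (220.0 FPKM, rank 125 of 12076 genes tested), followed by FASN (72.5 FPKM) and ACLY (52.1 FPKM), so the 3 most abundant messages all belonged to lipogenesis. In all, 4 genes had a mean of at least 20 FPKM, and FADS2, MVK, HSD17B7 and SC5D were below 3 FPKM. Because the read depth is unknown, the precision of these low values is known only from the spread between libraries.

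In the mevalonate pathway, ACAT2 and FDPS, which stand at its entry and at its end, rose, and the other 5 enzymes did not pass the test. ACAT2, the cytosolic thiolase that joins 2 acetyl-CoA, had 9.21, 9.73 and 10.68 FPKM in LV-NC and 12.93, 14.03 and 14.44 FPKM in LV-SNORA28. All LV-SNORA28 libraries stood above all LV-NC libraries. The means were 9.87 ± 0.745 and 13.8 ± 0.781 FPKM (SD, n = 3), a log2 fold change of 0.45 (SE 0.08, 95% interval 0.26 to 0.63, limma adjusted p = 0.0227). Leaving out 1 library at a time gave adjusted p-values from 0.039 to 0.086 in limma, the highest without LV-SNORA28 replicate 2. ACAT2 (ENSG00000120437) lies on chromosome 6, 159762045 to 159779112, plus strand of GRCh38. TCP1, a chaperonin subunit on the opposite strand, overlaps it and also rose, from 53.6 to 67.3 FPKM (log2 fold change 0.32, limma adjusted p = 0.0356). SOD2, on the opposite strand too, also overlaps ACAT2, and its level was not examined. The libraries were stranded, but whether strand was used in the quantification is not given in the sources used here. Reads in the shared stretches may therefore not have been told apart.

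FDPS, farnesyl diphosphate synthase, makes the last intermediate common to sterols and to protein prenylation. It had 16.62, 18.61 and 17.23 FPKM in LV-NC and 21.45, 22.00 and 22.70 FPKM in LV-SNORA28, again without overlap. The means were 17.5 ± 1.02 and 22.1 ± 0.626 FPKM (SD, n = 3), a log2 fold change of 0.32 (SE 0.06, 95% interval 0.17 to 0.47, limma adjusted p = 0.0335). This call was the least stable of the 4, with limma adjusted p-values of 0.0486 to 0.117 when 1 library was left out, the highest without LV-SNORA28 replicate 3, and 0.0795 after quantile normalization. FDPS (ENSG00000160752) lies on chromosome 1, 155308748 to 155320666, plus strand. None of its 8 annotated pseudogenes exceeded 0.14 FPKM in any library.

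Between these ends, the estimates went both ways. PMVK, phosphomevalonate kinase, had 16.2 ± 1.35 FPKM in LV-NC and 19.8 ± 0.968 FPKM in LV-SNORA28 (SD, n = 3), with a limma adjusted p of 0.0804. HMGCS1, which makes HMG-CoA, had 8.96 ± 0.753 and 10.4 ± 0.263 FPKM (adjusted p = 0.15 in limma). MVD, the decarboxylase of the pathway, was the 1 enzyme with a lower estimate, at 9.51 ± 0.229 and 8.12 ± 0.685 FPKM (log2 fold change -0.21, 95% interval -0.39 to -0.03, limma adjusted p = 0.134). The groups did not overlap in any of these 3 genes, but none passed after adjustment. MVK, mevalonate kinase, and IDI1, isopentenyl diphosphate isomerase, had log2 fold changes of 0.01 (95% interval -0.18 to 0.19) and 0.03 (95% interval -0.18 to 0.24). Summed over the 7 enzymes, the level was 70.1, 69.7 and 71.5 FPKM in LV-NC and 82.0, 82.0 and 84.0 FPKM in LV-SNORA28, 17.4% higher by the means. FDPS, PMVK and ACAT2, the 3 most abundant of the 7, make up most of that sum.

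Among the 11 squalene and sterol enzymes, SQLE rose and the other 10 did not pass the test. SQLE, squalene epoxidase, the first oxygenation step of the sterol branch, had 10.04, 10.55 and 10.00 FPKM in LV-NC and 13.17, 14.98 and 14.90 FPKM in LV-SNORA28. The lowest LV-SNORA28 library stood above the highest LV-NC library. The means were 10.2 ± 0.307 and 14.3 ± 1.02 FPKM (SD, n = 3), a log2 fold change of 0.45 (SE 0.07, 95% interval 0.28 to 0.62, limma adjusted p = 0.0173). With 1 library left out, the limma adjusted p lay between 0.0307 and 0.0723, the highest without LV-SNORA28 replicate 2. SQLE (ENSG00000104549) lies on chromosome 8, 124998497 to 125022283, plus strand.

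The enzymes on either side of SQLE did not pass the test. FDFT1, squalene synthase, had 11.05, 12.01 and 13.25 FPKM in LV-NC and 13.30, 12.59 and 12.50 FPKM in LV-SNORA28, with overlapping groups (log2 fold change 0.08, 95% interval -0.11 to 0.27). LSS, lanosterol synthase, had a log2 fold change of -0.09 (95% interval -0.37 to 0.19). CYP51A1, lanosterol demethylase and the most abundant of the 11, had 13.87, 15.16 and 14.93 FPKM in LV-NC and 14.39, 17.84 and 19.72 FPKM in LV-SNORA28. LV-SNORA28 replicate 1 lay within the LV-NC range while the other 2 lay above it, and the difference did not pass (log2 fold change 0.22, 95% interval -0.06 to 0.49, limma adjusted p = 0.275).

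MSMO1, the C4-methylsterol oxidase that acts after CYP51A1, had a lower estimate without overlap, at 9.88, 10.52 and 10.05 FPKM in LV-NC and 8.46, 8.87 and 9.05 FPKM in LV-SNORA28. The estimate on the log2 scale was -0.19 (SE 0.06, 95% interval -0.33 to -0.04), with a limma adjusted p of 0.107, and of 0.0463 after quantile normalization. HSD17B7, which works with MSMO1 in the removal of the C4 methyl groups, had a higher estimate of 0.20 (95% interval 0.01 to 0.40, limma adjusted p = 0.169), at levels near 2 FPKM. Its pseudogene HSD17B7P2 was at 0.89 to 1.41 FPKM, and reads of the 2 copies may have been split between them. NSDHL, the third enzyme of that step, and TM7SF2, a sterol C14 reductase, had log2 fold changes of -0.09 and -0.06 with overlapping groups. VPS51 overlaps TM7SF2 on the same strand. Its means were 9.76 FPKM in LV-NC and 8.96 FPKM in LV-SNORA28, against 5.16 and 4.86 FPKM for TM7SF2. How reads shared by TM7SF2 and VPS51 were assigned was not tested.

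EBP, SC5D and DHCR7, which finish the sterol rings, had the widest intervals of the list and overlapping groups. EBP had 9.55, 15.47 and 22.22 FPKM in LV-NC and 11.35, 12.01 and 7.55 FPKM in LV-SNORA28. It had the lowest log2 fold change of the 31 genes, -0.52, and also the widest interval (-1.24 to 0.20, limma adjusted p = 0.314). A gene that overlaps EBP on the same strand, ENSG00000286268, had 4.56 FPKM in LV-NC replicate 2, with no other library above 0.07 FPKM. SC5D had 3.40, 1.66 and 1.01 FPKM and 2.16, 2.03 and 3.32 FPKM, and DHCR7 had 7.81, 8.83 and 12.08 FPKM and 13.44, 11.64 and 8.20 FPKM. ENSG00000254682, which overlaps DHCR7 on the opposite strand, had 9.23, 12.78 and 11.21 FPKM and 10.19, 10.54 and 8.3 FPKM. How reads shared by DHCR7 and ENSG00000254682 were assigned was not tested. Summed over the 11 enzymes, the level overlapped between the groups, from 92.9 to 110.1 FPKM in LV-NC and from 99.8 to 104.7 FPKM in LV-SNORA28.

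None of the 5 genes of the SREBP machinery and sterol transport passed the test at the message level. SREBF2 was the most abundant of them, with 23.74, 22.53 and 22.99 FPKM in LV-NC and 24.47, 24.61 and 25.79 FPKM in LV-SNORA28. The groups stood apart, yet the log2 fold change was only 0.11 (95% interval -0.03 to 0.24, limma adjusted p = 0.264). SREBF1 had 19.37, 17.03 and 17.64 FPKM and 20.87, 18.59 and 20.24 FPKM, with a log2 fold change of 0.14 (95% interval -0.04 to 0.32, limma adjusted p = 0.289). LV-SNORA28 replicate 2 lay below LV-NC replicate 1, so these groups overlapped. For both factors the upper bound of the interval lies below the fold change of 1.5 that the study required. Cleavage of the SREBP proteins was not measured in these libraries.

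SCAP, the escort protein, had 11.70, 9.16 and 10.79 FPKM in LV-NC and 10.74, 9.63 and 9.13 FPKM in LV-SNORA28 (log2 fold change -0.09, 95% interval -0.34 to 0.16). INSIG1, the retention protein and itself a classical SREBP target, had 3.33, 2.89 and 5.12 FPKM and 2.81, 2.79 and 3.32 FPKM (log2 fold change -0.24, 95% interval -0.66 to 0.17, limma adjusted p = 0.412). The difference of its means came largely from LV-NC replicate 3, which stood above the 5 other libraries. STARD4, a soluble carrier of cholesterol, had 4.20, 3.04 and 3.74 FPKM and 3.47, 3.99 and 4.86 FPKM (log2 fold change 0.13, 95% interval -0.19 to 0.46). In all 5 genes LV-NC replicate 2 was the lowest library of its group, and over the 31 genes it was so in 15.

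**Figure D3:**
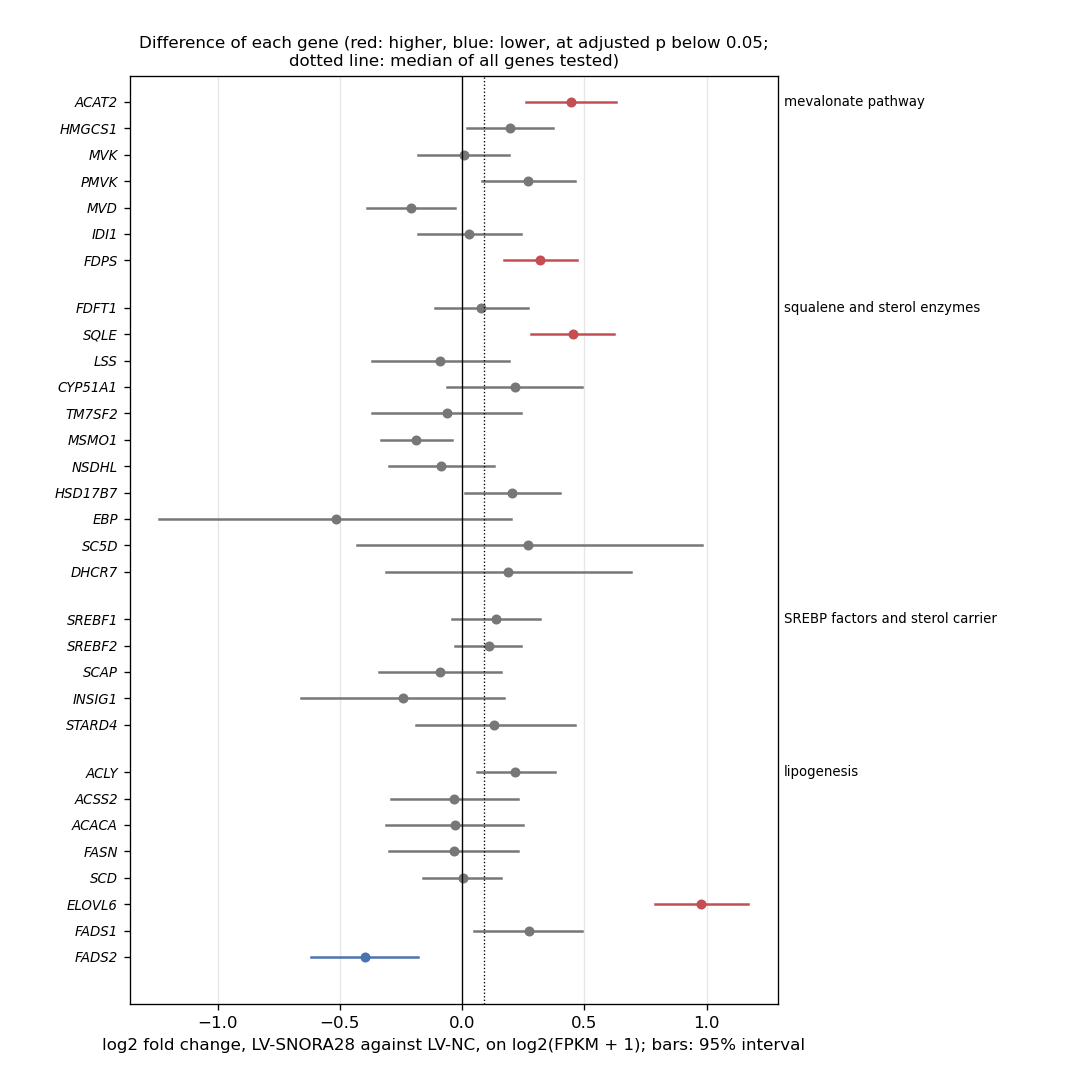
Log2 fold change of each of the 31 genes, LV-SNORA28 against LV-NC on log2(FPKM + 1), with 95% intervals from limma. The solid line is 0 and the dotted line the median of all genes tested (0.09). Red points (ACAT2, FDPS, SQLE, ELOVL6) and the blue point (FADS2) passed an adjusted p below 0.05, and EBP and SC5D carry the widest intervals.

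The lipogenic list held both the largest rise and the 1 fall, both in enzymes that modify a fatty acid chain after its synthesis. ELOVL6, the elongase that extends saturated and monounsaturated chains of palmitate length, had 3.84, 3.22 and 3.38 FPKM in LV-NC and 7.56, 7.62 and 8.24 FPKM in LV-SNORA28. The lowest LV-SNORA28 value was far above the highest LV-NC value, and the spread within each group was small. The means were 3.48 ± 0.322 and 7.81 ± 0.376 FPKM (SD, n = 3), a ratio of 2.24. On log2(FPKM + 1), a scale that understates the change of low genes, the log2 fold change was 0.98 (SE 0.08, 95% interval 0.79 to 1.17, limma adjusted p = 0.00305), the 77th highest of the 12076 genes tested. With 1 library left out it stayed between 0.93 and 1.03, with limma adjusted p-values of 0.00972 to 0.0195. ELOVL6 (ENSG00000170522) lies on chromosome 4, 110045846 to 110199199, minus strand.

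FADS2, the Δ6-desaturase that starts the making of long polyunsaturated chains, had 2.03, 1.91 and 2.47 FPKM in LV-NC and 1.38, 1.35 and 1.39 FPKM in LV-SNORA28. It was lower in every LV-SNORA28 library than in any LV-NC library. The means were 2.14 ± 0.295 and 1.37 ± 0.0208 FPKM (SD, n = 3), a ratio of 0.643. The log2 fold change was -0.40 (SE 0.09, 95% interval -0.62 to -0.18), and the limma adjusted p of 0.0475 was just under the threshold. No fit with a library left out kept the call, with limma adjusted p-values from 0.0696 to 0.137, the highest without LV-SNORA28 replicate 2. With a pseudocount of 0.1 in place of 1 its log2 fold change was -0.59, past the fold change of 1.5.

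FADS1, the Δ5-desaturase that acts after FADS2 in the same route, had 6.46, 5.49 and 5.37 FPKM in LV-NC and 6.84, 6.85 and 7.84 FPKM in LV-SNORA28. Its estimate was positive, 0.27 (95% interval 0.05 to 0.49), without overlap between the groups, but it did not pass (limma adjusted p = 0.113). The genes lie on opposite strands of chromosome 11 and overlap, FADS2 (ENSG00000134824) at 61792980 to 61867354 and FADS1 (ENSG00000149485) at 61799627 to 61829318. FEN1, a flap endonuclease gene inside the FADS2 span on the same strand, ran from 46.86 to 64.18 FPKM in LV-NC and from 51.89 to 58.91 FPKM in LV-SNORA28. How reads of this locus were assigned was not tested.

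**Figure D4:**
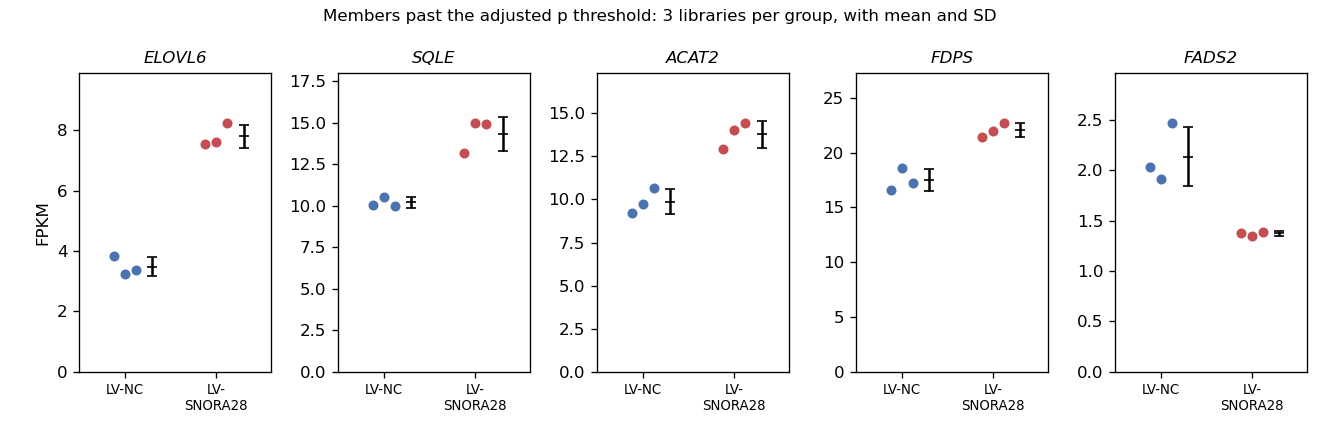
FPKM per library of the 5 genes that passed an adjusted p below 0.05 (blue LV-NC, red LV-SNORA28), with the mean and SD of 3 libraries beside the points and axes that start at 0. ELOVL6 goes from 3.48 to 7.81 FPKM by the means, SQLE, ACAT2 and FDPS rise by smaller ratios, and FADS2 falls from 2.14 to 1.37 FPKM.

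The abundant lipogenic enzymes did not pass the test. SCD, the stearoyl-CoA desaturase that makes monounsaturated chains, had 232.49, 212.46 and 213.74 FPKM in LV-NC and 209.93, 217.65 and 232.24 FPKM in LV-SNORA28. The groups covered the same range, and the log2 fold change was 0.00 with a 95% interval of -0.16 to 0.16. FASN, fatty acid synthase, had 73.6 ± 10.4 and 71.4 ± 3.88 FPKM (SD, n = 3), and ACACA, the acetyl-CoA carboxylase that feeds it, had a log2 fold change of -0.03 (95% interval -0.31 to 0.25). ACLY, which cleaves citrate to acetyl-CoA, had 47.07, 45.36 and 51.87 FPKM in LV-NC and 54.57, 55.71 and 57.73 FPKM in LV-SNORA28. Its groups did not overlap, but it did not pass (log2 fold change 0.22, 95% interval 0.06 to 0.38, limma adjusted p = 0.0965). ACSS2, which makes acetyl-CoA from acetate, had a log2 fold change of -0.03 (limma adjusted p = 0.875).

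For 6 of the 31 genes the whole 95% interval lay within 0.3 of 0 on the log2 scale, which bounds the size of any difference there. For the other genes that did not pass, the interval allows more. There were 7 genes with an unadjusted p below 0.05 and an adjusted p of at least 0.05, namely HMGCS1, PMVK, MVD, MSMO1, HSD17B7, ACLY and FADS1.

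Ratios between genes of the list within a library do not depend on the scaling of FPKM to the library total. They were chosen after the values were seen, so they are given as a description with no test. The ratio of ELOVL6 to SCD was 0.0165, 0.0152 and 0.0158 in LV-NC and 0.036, 0.035 and 0.0355 in LV-SNORA28. The ratio of SQLE to MSMO1 was 1.02, 1.0 and 0.995 in LV-NC and 1.56, 1.69 and 1.65 in LV-SNORA28. That of FADS1 to FADS2 was 3.18, 2.87 and 2.17 in LV-NC and 4.96, 5.07 and 5.64 in LV-SNORA28. In each case the groups stood apart.

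**Figure D5:**
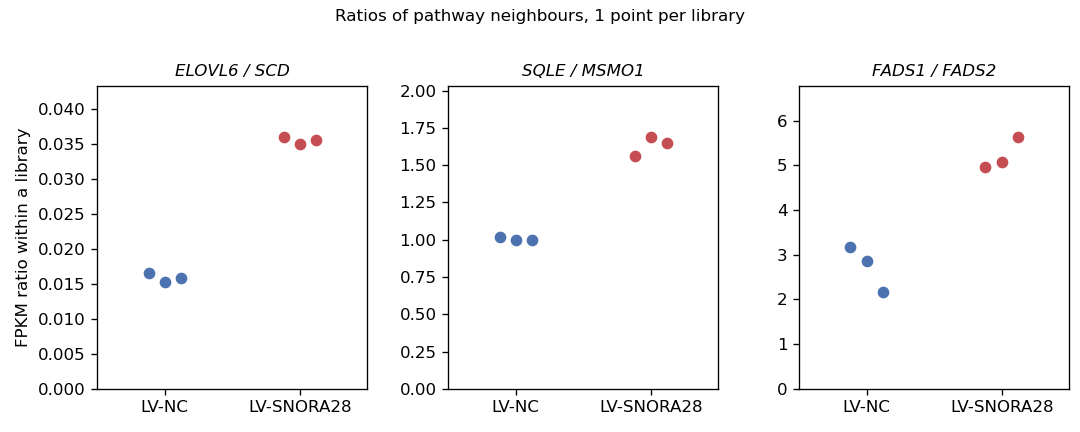
Ratio of FPKM values within each library for ELOVL6 over SCD, SQLE over MSMO1 and FADS1 over FADS2 (blue LV-NC, red LV-SNORA28, axes from 0). The LV-SNORA28 libraries lie above the LV-NC libraries in all 3 panels, with ELOVL6 over SCD between 0.035 and 0.036 against 0.0152 to 0.0165.

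Other genes of the same biology were taken from lists drawn up by function. Of 48 such genes, 45 passed the filter (ABCA1, ABCG1 and ACACB did not), 2 rose, 1 fell and 42 did not pass the test. The 2 that rose are 4.44% of the 45, below the 6.81% of all genes tested, and the 1 that fell is 2.22%, near the 2.10% of all genes tested. The median log2 fold change was 0.04. Both genes that rose belong to acyl chain supply and activation. ME1, the malic enzyme that provides NADPH, had 18.63, 19.99 and 20.72 FPKM in LV-NC and 23.67, 25.19 and 25.71 FPKM in LV-SNORA28 (log2 fold change 0.32, SE 0.07, limma adjusted p = 0.0367). ACSL5, an acyl-CoA synthetase, had 26.11, 22.82 and 22.77 FPKM and 33.06, 30.46 and 33.06 FPKM (log2 fold change 0.42, SE 0.08, limma adjusted p = 0.0256). In both genes all LV-SNORA28 libraries stood above all LV-NC libraries. Neither call was stable, since with 1 library left out the limma adjusted p was 0.0651 to 0.124 for ME1 and 0.0268 to 0.095 for ACSL5, in both the highest without LV-SNORA28 replicate 3, and both calls were lost after quantile normalization.

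Of the 10 genes of SREBP maturation and turnover, NR1H2 fell. NR1H2 encodes the oxysterol receptor LXR-beta, which induces SREBF1, and it had 4.79, 4.43 and 4.90 FPKM in LV-NC and 3.62, 3.52 and 3.38 FPKM in LV-SNORA28 (log2 fold change -0.34, SE 0.07, limma adjusted p = 0.0348). No fit with 1 library left out kept this call, with limma adjusted p-values of 0.0536 to 0.119, the highest without LV-SNORA28 replicate 3. No gene of the nonsterol isoprenoid branches (11 genes) or of sterol uptake, trafficking and storage (9 of 11 passed the filter) passed the test. By the threshold of the study, INSIG2 and SLC25A1 passed (4.44% of the 45, against 3.79% of genes tested), both with adjusted p-values above 0.05. INSIG2 had 0.83, 0.63 and 0.78 FPKM in LV-NC and 1.03, 1.89 and 3.23 FPKM in LV-SNORA28 (log2 fold change 0.74, limma adjusted p = 0.117). SLC25A1, the citrate carrier, had 17.01, 17.31 and 16.96 FPKM and 39.77, 22.21 and 24.76 FPKM (log2 fold change 0.68, limma adjusted p = 0.0857), with LV-SNORA28 replicate 1 far above the rest.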

How the data were processed

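Poly(A)-selected, dUTP-stranded RNA libraries of LV-NC (3) and LV-SNORA28 (3) HCT116 cells were sequenced as paired ends. The authors deposited FPKM per Ensembl gene. The submitters' processing notes name cutadapt 1.9, HISAT2 2.2.1, StringTie 2.1.6, DESeq2, edgeR and hg38, with no roles. The annotation release and the strand setting are not given in the sources used here. Read depth is unknown, so no counting interval was given. FPKM is relative, so a change in abundant transcripts shifts all others.

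Symbols and coordinates came from GENCODE 44 on GRCh38. On the log2(FPKM + 1) scale, 12076 genes passed a minimum mean of 1 FPKM and entered limma 3.58.1 (R 4.3.3, trended eBayes, two-sided, Benjamini-Hochberg over all genes tested). Since the files held FPKM, no count model was used. The fit was tested on simulated data. Groups came from the sample titles, and with 3 libraries a group the smallest exact permutation p is 0.1. The genes, lists and tests were chosen with earlier results of these data known. All 31 genes are named, with values per library for those with an adjusted p below 0.05, the SREBP list and the most abundant gene of each list. Further values per library, the ratios and the overlapping genes were chosen after their values were seen. Motifs were searched in Python 3.11.15. Alternatives were quantile normalization, scaling to the nuclear sum, no filter, a mean of at least 5 FPKM, a pseudocount of 0.1, no variance trend, a replicate block, a minimum fold change of 2 and each library left out.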

Additional observations from a re-analysis of the deposited data

How the results depend on the processing

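The count of the 31 genes called higher was 4, and 2 with no filter on low values (32761 genes tested), and from 1 to 3 with 1 library left out. The count called lower was 1, and 2 after quantile normalization, 0 with no filter, 0 at a mean of at least 5 FPKM (which removed FADS2) and 0 in every fit with 1 library left out. Replicate numbers showed no pairing of libraries (correlations of deviations -0.04411, 0.09144 and 0.00983), and with the replicate block 3 genes were higher and 0 lower. Past the threshold of the study were 1 gene, 2 genes with a pseudocount of 0.1, 0 with a fold change above 2 on log2(FPKM + 1), where ELOVL6, with a ratio of means of 2.24, had a log2 fold change of 0.98, and from 1 to 2 with 1 library left out. EBP was the second gene without LV-NC replicate 1, where its log2 fold change was -0.81. Of the related genes, 2 were called higher, 0 after quantile normalization, 0 with no filter, 1 with the replicate block, and from 0 to 2 with 1 library left out. The count of related genes called lower was 1, and 0 with no filter, 0 at a mean of at least 5 FPKM and 0 with the replicate block. With 1 library left out it was from 0 to 1. The 1 came without LV-SNORA28 replicate 3 and was a gene other than NR1H2, whose limma adjusted p was 0.119 there. The cause of these differences was not tested, beyond the genes removed or added by a filter. The median log2 fold change of the 31 genes stayed between 0.03 and 0.09.

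Signs turned only in genes whose main estimate was between -0.09 and 0.08. After quantile normalization the log2 fold change was -0.0782 for MVK, -0.0736 for IDI1 and -0.0149 for FDFT1, and after rescaling to the nuclear FPKM sum it was -0.012 for MVK and -0.0246 for SCD. With 1 library left out, MVK ranged from -0.0344 to 0.0486, IDI1 from -0.0163 to 0.0904, SCD from -0.0373 to 0.0441, LSS from -0.17 to 0.0073, TM7SF2 from -0.18 to 0.0525, ACSS2 from -0.1 to 0.0506, ACACA from -0.15 to 0.0407 and FASN from -0.14 to 0.0631.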
